A study of Drosophila melanogaster with 18 samples.

Results

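The oxidative phosphorylation genes of Drosophila melanogaster were followed in ovaries of 4 genotypes, 2 of them at 2 temperatures. They were taken by name: probe sets annotated to 1 gene whose symbol begins with ND-, UQCR-, COX and a digit, ATPsyn or Sdh. This gave 73 genes, measured by 81 probe sets, out of 11982 genes and 18769 probe sets. Where a gene had several sets, the one that averaged highest across the 18 arrays stood for it. By their prefixes, 32 genes belong to complex I (ND-), 7 to complex II (Sdh), 6 to complex III (UQCR-), 14 to complex IV (COX) and 14 to complex V (ATPsyn). Of the 73, 51 are subunits, 1 is the assembly factor Sdhaf3, and 21 have symbols ending in L, or in L and a digit, which mark a paralogue of a subunit. The current Release 6 annotation holds 91 genes with such symbols. The genes are spread over the genome, with 15 on arm 2L, 13 on 2R, 16 on 3L, 17 on 3R, 11 on X and ATPsynbeta on chromosome 4.

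Oxidative phosphorylation takes place in the inner mitochondrial membrane. Complex I oxidises NADH and complex II oxidises succinate, complex III passes the electrons to cytochrome c, and complex IV hands them to oxygen. Complexes I, III and IV pump protons, and complex V, the ATP synthase, lets the protons flow back to make ATP. A few subunits are encoded in mitochondrial DNA and all others in the nucleus. The growing egg is filled with mitochondria during oogenesis, and in flies many nuclear mitochondrial genes have a duplicate copy that is used mainly in the male germ line.

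The 6 groups held 3 arrays each. RpII2154/FM7;Marcal1del/del females at 20 °C combine the 2 mutations below. RpII2154/FM7 females at 20 °C carry the RpII2154 allele over FM7, a balancer of the X chromosome. RpII215 encodes the large catalytic subunit of RNA polymerase II. Marcal1del/del females, in which both copies of Marcal1 carry a deletion, were sampled at 25 °C and at 20 °C. Marcal1 is the counterpart of human SMARCAL1, an annealing helicase. The yw strain, also sampled at 25 °C and at 20 °C, was the control. The labels call 25 °C a heat stress and the title of the series concerns the penetrance of SMARCAL1 mutations. No group holds FM7 without the RpII2154 allele, and the labels name no control stock matched to either mutant, so allele, balancer and stock background cannot be told apart. The 6 arrays with RpII2154 also belong to another series of array names than the other 12, so array series and RpII2154/FM7 cannot be told apart either. Levels are log2 intensities normalized by RMA. They are compared here within a probe set, and never between probe sets except by whether each lies above or below the median of its array. The median of an array lay between 4.08 and 4.20.

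Marcal1 itself, the check of the labels, was lower in each deletion group. It read 5.41, 6.12 and 5.98 in RpII2154/FM7;Marcal1del/del, against 7.56, 7.87 and 7.94 in RpII2154/FM7. It read 5.94, 6.19 and 5.96 in Marcal1del/del at 25 °C, against 7.83, 8.24 and 8.27 in yw at 25 °C. At 20 °C it read 5.85, 5.90 and 5.87 in Marcal1del/del, against 8.48, 7.53 and 7.81 in yw. Eggshell and germline markers stood above the median on all 18 arrays, as 11 of 11 and 6 of 6 measured genes, and 10 of 11 testis markers stood below it on all 18. Of 13 measured muscle markers, 8 stood above the median on all 18 arrays and 1 below on all 18. The mean of the muscle markers ranged from 5.04 to 7.48 between arrays and that of the eggshell markers from 8.94 to 13.61. By these markers 3 arrays had been set apart in earlier results, namely yw at 20 °C replicate 1, RpII2154/FM7 replicate 3 and yw at 25 °C replicate 1, and each result below was also computed without them.

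Nearly all subunit genes of the 5 complexes lay above the median of the array in every group, and most of their paralogues lay below it. Of the 52 subunit and assembly factor genes, 51 lay above the median of the array on all 18 arrays, and 49 had a mean over 9. The 3 others were ND-B12 of complex I, which read between 6.05 and 6.70, UQCR-11 of complex III, which read between 4.67 and 5.90, and ND-B8 of complex I. ND-B8 was the only one of the 52 below every array median, at 2.79 to 3.30. In human, the counterparts of ND-B12 and ND-B8 are accessory subunits of complex I. Such a low reading belongs to 1 probe set, and whether that set detects the gene's transcript was not tested.

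Of the 21 paralogues, 15 lay below the median of the array on all 18 arrays, 6 were above it on some arrays, and none was above it on all. The 14 that lay under the lowest of the array medians throughout were ATPsynCF6L, ATPsynGL, COX4L, COX5BL, COX6AL2, COX6CL, COX7AL, ND-51L1, ND-B14.5AL, SdhAL, SdhBL, SdhCL, UQCR-11L and UQCR-14L. ATPsynCF6L, for example, read between 2.64 and 3.21, while ATPsynCF6 was above the median on 18 of 18 arrays. ND-B14.5AL read between 2.94 and 3.53, and SdhBL between 2.74 and 3.18. The base gene was measured for 18 of the 21 paralogues, and each of these 15 base genes was above the median on all 18 arrays. The other 6 paralogues crossed the median. COX7AL2 and ND-20L were above it on 17 arrays each, ATPsynepsilonL on 14, ATPsynbetaL on 5, and COX6AL and ND-24L on 1 each. The testis markers, which the ovary should lack, had a mean between 3.14 and 3.40 on the arrays. Whether the probe sets of the paralogues detect their transcripts was not tested either.

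**Figure D1:**
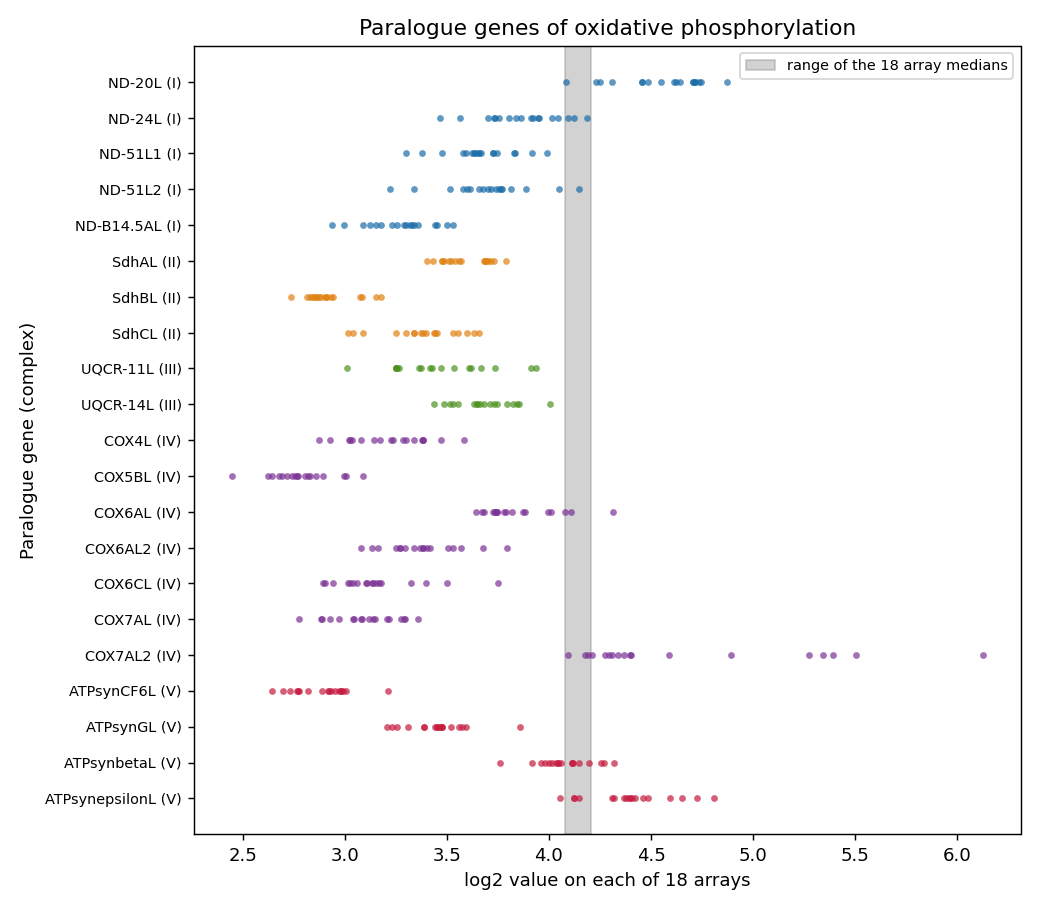
Level of each of the 21 paralogue genes on the 18 arrays (points, log2 value on the horizontal axis, coloured by complex), with the range of the 18 array medians, 4.08 to 4.20, as a grey band. Most paralogues lie left of the band, and only COX7AL2 has arrays above 5.

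Between the groups the subunit genes moved little. Among the 49 with a mean over 9, the range of the 6 group means had a median of 0.30 on the log2 scale, against 0.32 over all 3489 probe sets with a mean over 9. The SD within groups, pooled over the 6 groups, had a median of 0.131 for these genes and 0.137 for those probe sets. The most even gene of each complex was ND-20 for complex I (range of group means 0.14), SdhB for complex II (0.17), UQCR-6.4 for complex III (0.13), COX7B for complex IV (0.18) and ATPsynC for complex V (0.07). ND-20 and SdhB hold iron-sulfur clusters, and ATPsynC forms the rotating ring of the ATP synthase. ATPsynC averaged 12.65 ± 0.08 in RpII2154/FM7;Marcal1del/del, 12.70 ± 0.11 in RpII2154/FM7, 12.69 ± 0.02 in Marcal1del/del at 25 °C, 12.72 ± 0.08 in Marcal1del/del at 20 °C, 12.71 ± 0.09 in yw at 25 °C and 12.72 ± 0.19 in yw at 20 °C (SD, n = 3 each). All 6 means lay within the spread of single arrays.

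The 5 genes with the widest range of group means were COX7AL2 (1.09), UQCR-11 (0.83), ND-B14.5B (0.79), ND-B14.5A (0.69) and ND-PDSW (0.54). Of these, COX7AL2, ND-B14.5B and ND-B14.5A also had wide spreads among replicates, with pooled SDs of 0.52, 0.41 and 0.45. ND-PDSW, the counterpart of a human accessory subunit of complex I, had a pooled SD of 0.13. It read 10.93, 10.81 and 10.72 in RpII2154/FM7;Marcal1del/del and 11.02, 11.31 and 11.22 in RpII2154/FM7. In Marcal1del/del it read 10.59, 10.76 and 10.59 at 25 °C and 10.96, 10.60 and 10.59 at 20 °C. In yw it read 11.11, 10.97 and 10.83 at 25 °C and 10.95, 10.97 and 10.96 at 20 °C. The RpII2154/FM7 arrays were the highest group and the 2 Marcal1del/del groups the lowest, with 1 Marcal1del/del array at 20 °C among the yw values.

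**Figure D2:**
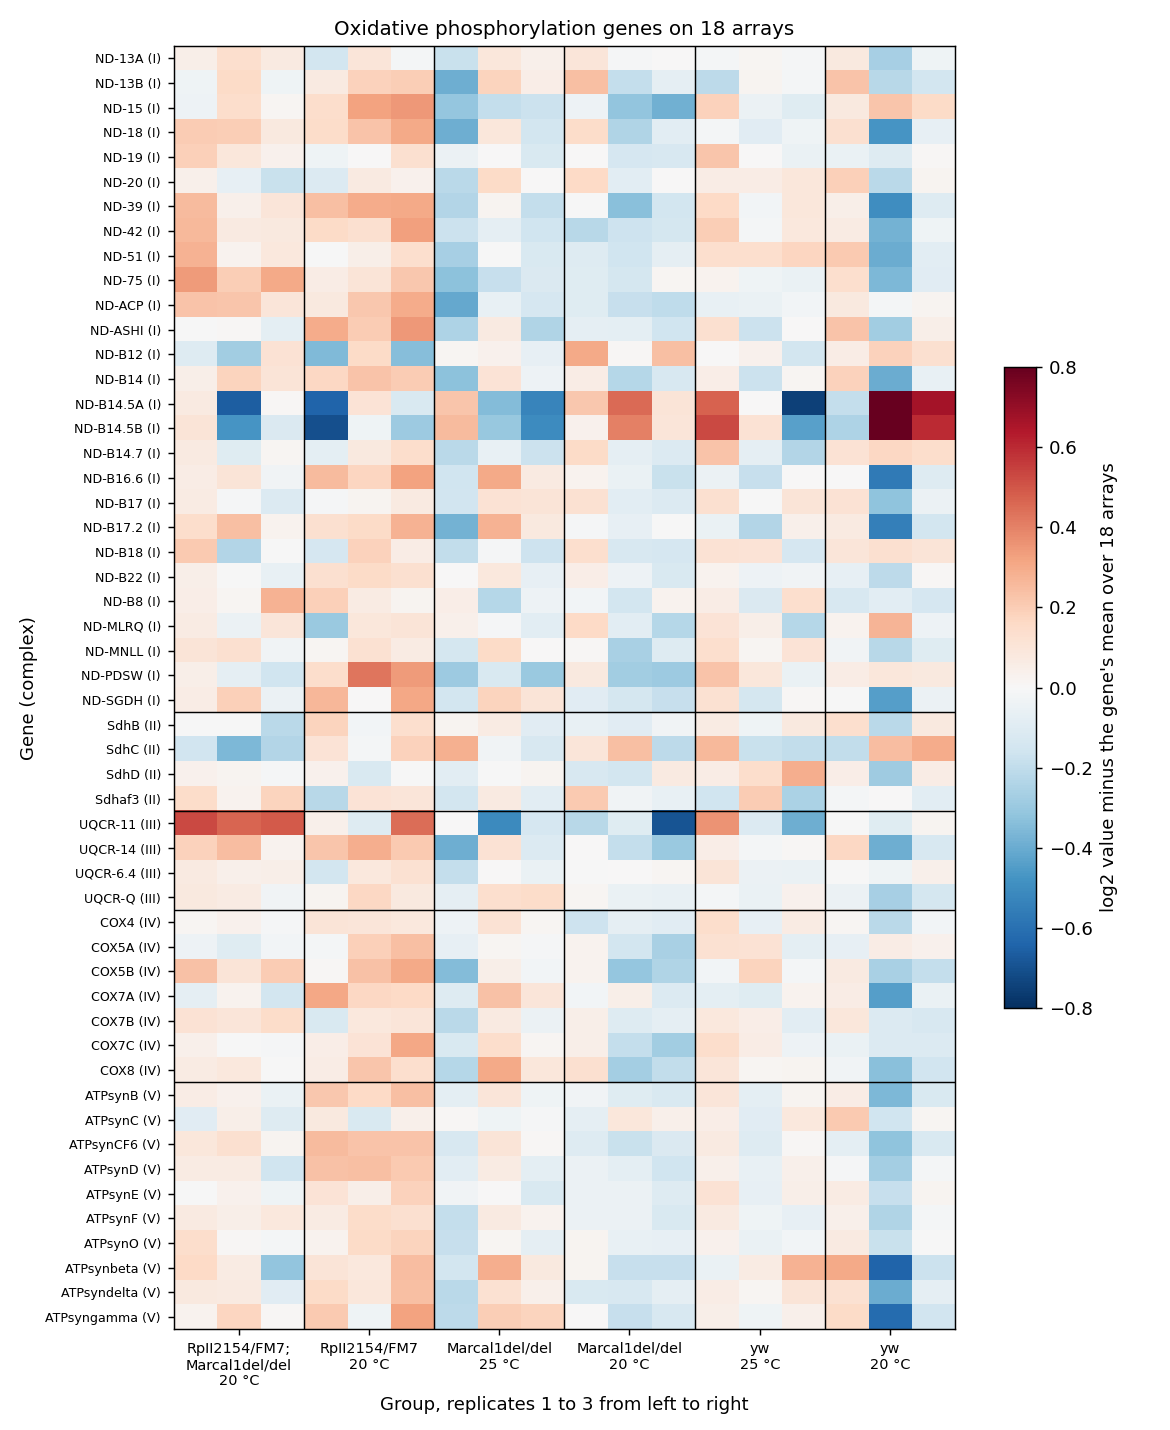
Log2 level of the 52 subunit and assembly factor genes (rows, ordered by complex) on the 18 arrays (columns, replicates 1 to 3 of each group), as the difference from the gene's mean over the arrays; red is above and blue below the mean, and the darkest colours also hold larger differences. The rows of ND-B14.5A and ND-B14.5B differ from the rows around them, and yw at 20 °C replicate 2 is low for most genes.

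The genes shared part of their spread between replicates. On yw at 20 °C replicate 2, 38 of the 52 genes had their lowest value of the 3 arrays, with a median deviation of -0.16 from the group mean. Of all probe sets with a mean over 9, 56.8% were lowest on that array too. On Marcal1del/del at 25 °C replicate 1, 39 of the 52 were lowest, with a median deviation of -0.11, against 52.9% of those probe sets. ATPsynbeta, the catalytic subunit of the ATP synthase, read 12.79, 11.86 and 12.32 in yw at 20 °C, so replicate 2 was the lowest. ND-B14.5A and ND-B14.5B, whose human counterparts are accessory subunits of complex I, ran the other way. ND-B14.5A read 11.05, 12.17 and 11.90 in yw at 20 °C, and ND-B14.5B read 11.26, 12.49 and 12.10. Both were highest on replicate 2, where most other subunits were lowest. The 2 genes put the 3 arrays in the same order in 5 of 6 groups. ND-B14.5A and ATPsynbeta shared the order in 0 of 6 groups and had it reversed in 2.

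ND-B14.5A read 11.31, 10.58 and 11.25 in RpII2154/FM7;Marcal1del/del and 10.60, 11.35 and 11.11 in RpII2154/FM7. In Marcal1del/del it read 11.46, 10.89 and 10.71 at 25 °C and 11.46, 11.69 and 11.34 at 20 °C. In yw at 25 °C it read 11.71, 11.24 and 10.49. Its replicates thus differed by up to 1.22 within a group, and every group overlapped with at least 1 other. ND-B14.5B read 11.61, 11.03 and 11.39 in RpII2154/FM7;Marcal1del/del and 10.80, 11.47 and 11.21 in RpII2154/FM7. In Marcal1del/del it averaged 11.32 ± 0.39 (SD, n = 3) at 25 °C and read 11.54, 11.91 and 11.60 at 20 °C, and in yw at 25 °C it read 12.04, 11.62 and 11.07. Neither gene passed the test in any comparison of all 18 arrays.

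In RpII2154/FM7 against yw at 20 °C the changes of most subunit genes were positive and small, and few passed the test one by one. The median log2 change of the 52 genes was 0.18, and 43 of them were positive. Over all probe sets the median was -0.002, and over those with a mean over 9 it was 0.01. By complex, the median was 0.30 for complex V (9 of 10 positive), 0.25 for complex IV (7 of 7), 0.20 for complex III (4 of 4), 0.18 for complex I (20 of 27) and 0.03 for complex II (3 of 4). In bulk ovary RNA, fewer or more cells of a type and less or more RNA per cell cannot be told apart. Of the 73 genes, 1 was called higher and 1 lower at an adjusted p under 0.05 (limma, Benjamini-Hochberg over all probe sets), where 2.76% of all probe sets were called, 1.52% higher and 1.24% lower. At an unadjusted p under 0.05, 22 were higher and 3 lower, which is 25 of 73, against 17.2% of all probe sets (8.74% higher and 8.42% lower) and 22.6% of those with a mean over 9. The 3 RpII2154/FM7 arrays lay above all 3 yw arrays for 20 of the 52 genes and below them for 0, where 9.61% of all probe sets and 12.2% of those with a mean over 9 were higher in this way, and 9.97% of all probe sets were lower.

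ATPsynCF6, coupling factor 6 of the ATP synthase stalk, read 12.24, 12.22 and 12.22 in RpII2154/FM7, against 11.91, 11.67 and 11.87 in yw. The groups did not overlap, and the mutant arrays were nearly equal. It rose by 0.41 ± 0.09 on the log2 scale (SE), or 1.33-fold, with an adjusted p of 0.019 in limma. The call was lost in 4 of the 6 fits that leave out 1 array, where the adjusted p in limma reached 0.11 without yw replicate 2, and in the fit of these 6 arrays alone, where it was 0.18. In the other groups ATPsynCF6 read 12.08, 12.12 and 12.01 in RpII2154/FM7;Marcal1del/del and 11.89, 11.81 and 11.88 in Marcal1del/del at 20 °C. At 25 °C it ranged from 11.86 to 12.09 in Marcal1del/del and from 11.89 to 12.06 in yw.

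ND-20L, the paralogue of the complex I subunit ND-20, fell by 0.49 ± 0.12, or 1.41-fold, with an adjusted p of 0.037 in limma. It read 4.23, 4.25 and 4.08 in RpII2154/FM7, against 4.71, 4.62 and 4.71 in yw, so that the mutant values lay close to the array medians and the yw values a little above it. In each of the 6 fits with 1 array left out the adjusted p in limma was over the threshold, between 0.059 and 0.13. ND-20 itself averaged 10.54 ± 0.10 in RpII2154/FM7 and 10.54 ± 0.21 in yw (SD, n = 3 each).

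**Figure D3:**
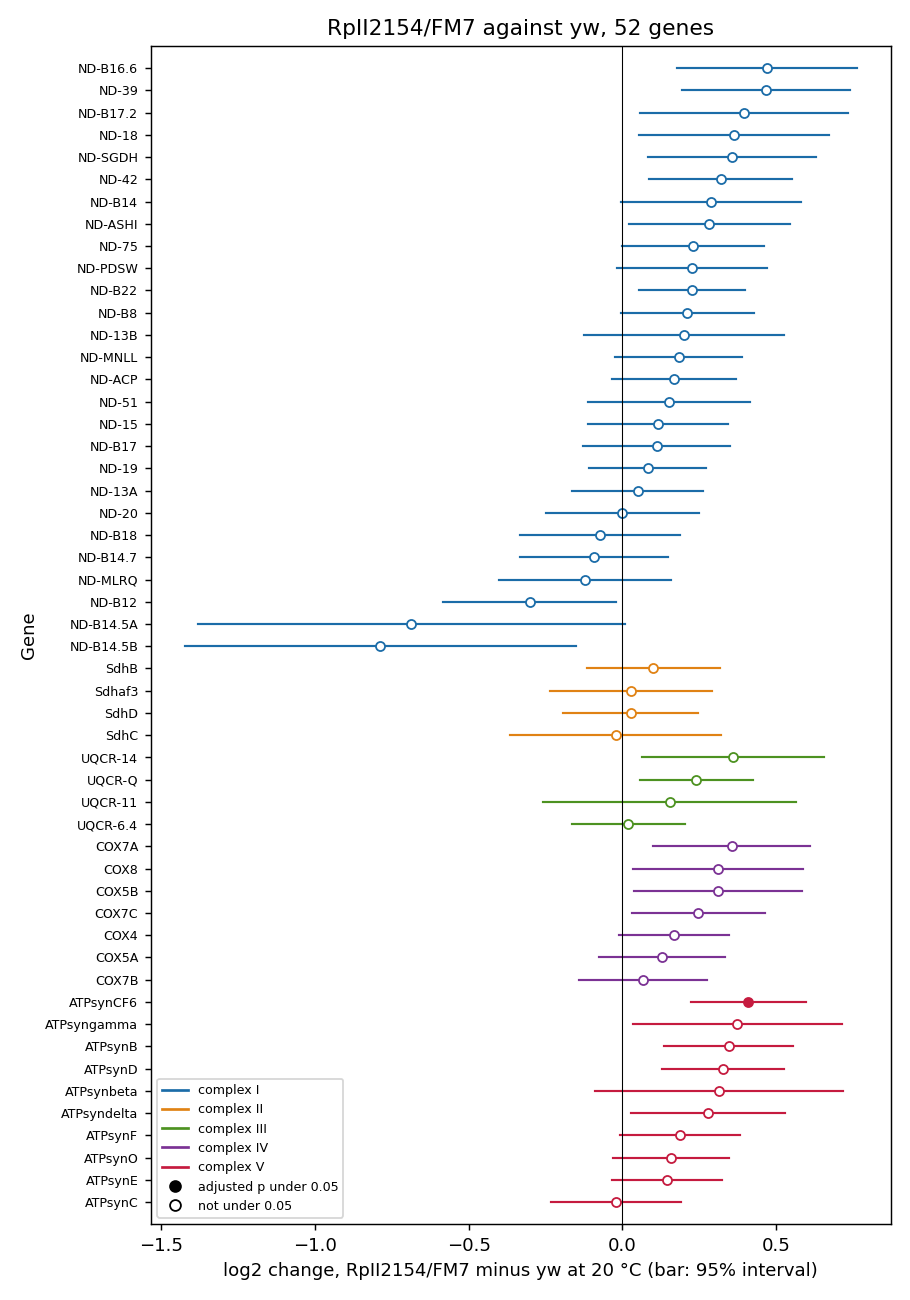
Log2 change of the 52 subunit and assembly factor genes in RpII2154/FM7 against yw at 20 °C (point) with its 95% interval from limma (bar), by complex; the filled point passed an adjusted p of 0.05. The points of 43 genes lie right of 0, and ND-B14.5A and ND-B14.5B lie farthest left with the widest bars.

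Further genes had large changes in RpII2154/FM7 that did not pass. Here and below, the highest and lowest changes are ranked among the genes with at least 1 group mean above every array median. The largest was COX7AL2, with a log2 change of 1.01 ± 0.37 and an adjusted p of 0.17 in limma. Complex I gave the next, ND-B16.6, the counterpart of human GRIM-19, at 0.47 ± 0.14 and ND-39, an accessory subunit of the matrix arm, at 0.47 ± 0.13. ND-39 read 10.76, 10.81 and 10.82 in RpII2154/FM7, against 10.56, 10.02 and 10.41 in yw. ND-B16.6 read 10.55, 10.47 and 10.62 in RpII2154/FM7, against 10.30, 9.73 and 10.19 in yw. Neither gene overlapped between the groups, and the adjusted p was 0.067 for ND-39 and 0.084 for ND-B16.6 in limma. In both, yw replicate 2 was the low array. The lowest changes were -0.79 ± 0.30 for ND-B14.5B and -0.69 ± 0.33 for ND-B14.5A, whose groups overlapped. Without yw replicate 2 the median of the 52 genes was 0.12 with 39 positive, the lowest over the fits with 1 array left out, and without yw replicate 1 it was 0.22 with 45 positive. Without the 3 arrays set apart it was 0.22 with 43 positive.

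Other measurements moved with RpII2154/FM7. The muscle markers averaged 7.01, 6.55 and 7.01 on its arrays, against 5.63, 6.07 and 5.94 in yw at 20 °C. Of the 13 markers, 12 had a positive change, with a median of 1.24, and 0 were called. All 5 measured hemocyte markers had a positive change, with a median of 0.43, and PPO1 was called higher. The germline marker aub was called higher, at 0.74 ± 0.08 with an adjusted p of 9.1e-05 in limma. Of the 6 germline markers 5 were positive, with a median of 0.09. Of the 3 measured fat body markers 0 had a positive change, with a median of -0.81. The eggshell markers averaged 13.33, 13.42 and 8.94 in RpII2154/FM7, against 10.46, 13.04 and 13.03 in yw at 20 °C. Of these 11 markers 5 were positive, with a median of -0.04. The arrays low for eggshell markers, RpII2154/FM7 replicate 3 and yw replicate 1, were the highest of their 3 for 29 and 35 of the 52 genes. The difference between the 3′ and the 5′ probe set of the GAPDH control, a measure of RNA integrity, averaged 1.49 ± 0.14 in RpII2154/FM7 and 1.15 ± 0.05 in yw at 20 °C (SD, n = 3 each). For the actin control it averaged 1.37 ± 0.17 in RpII2154/FM7 and 0.97 ± 0.07 in yw. The part of these in the shift of the subunit genes was not tested.

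COX7AL2, a paralogue of the complex IV subunit COX7A, read 5.34, 5.27 and 5.39 in RpII2154/FM7, against 4.40, 4.30 and 4.28 in yw at 20 °C, with no overlap. It read 4.37, 4.10 and 4.89 in RpII2154/FM7;Marcal1del/del. At 25 °C a single array of each group was high, with 6.13, 4.59 and 4.40 in Marcal1del/del and 5.51, 4.19 and 4.31 in yw. On the same arrays the muscle markers averaged 6.93, 5.82 and 5.04 in Marcal1del/del and 7.48, 5.32 and 5.49 in yw, so that the highest array was the same one for both measures in both groups. In Marcal1del/del at 20 °C COX7AL2 read 4.34, 4.18 and 4.21. In the fit of the RpII2154/FM7 and yw arrays alone COX7AL2 was called, with an adjusted p of 0.0067 in limma. The part of muscle RNA in these values was not tested.

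**Figure D4:**
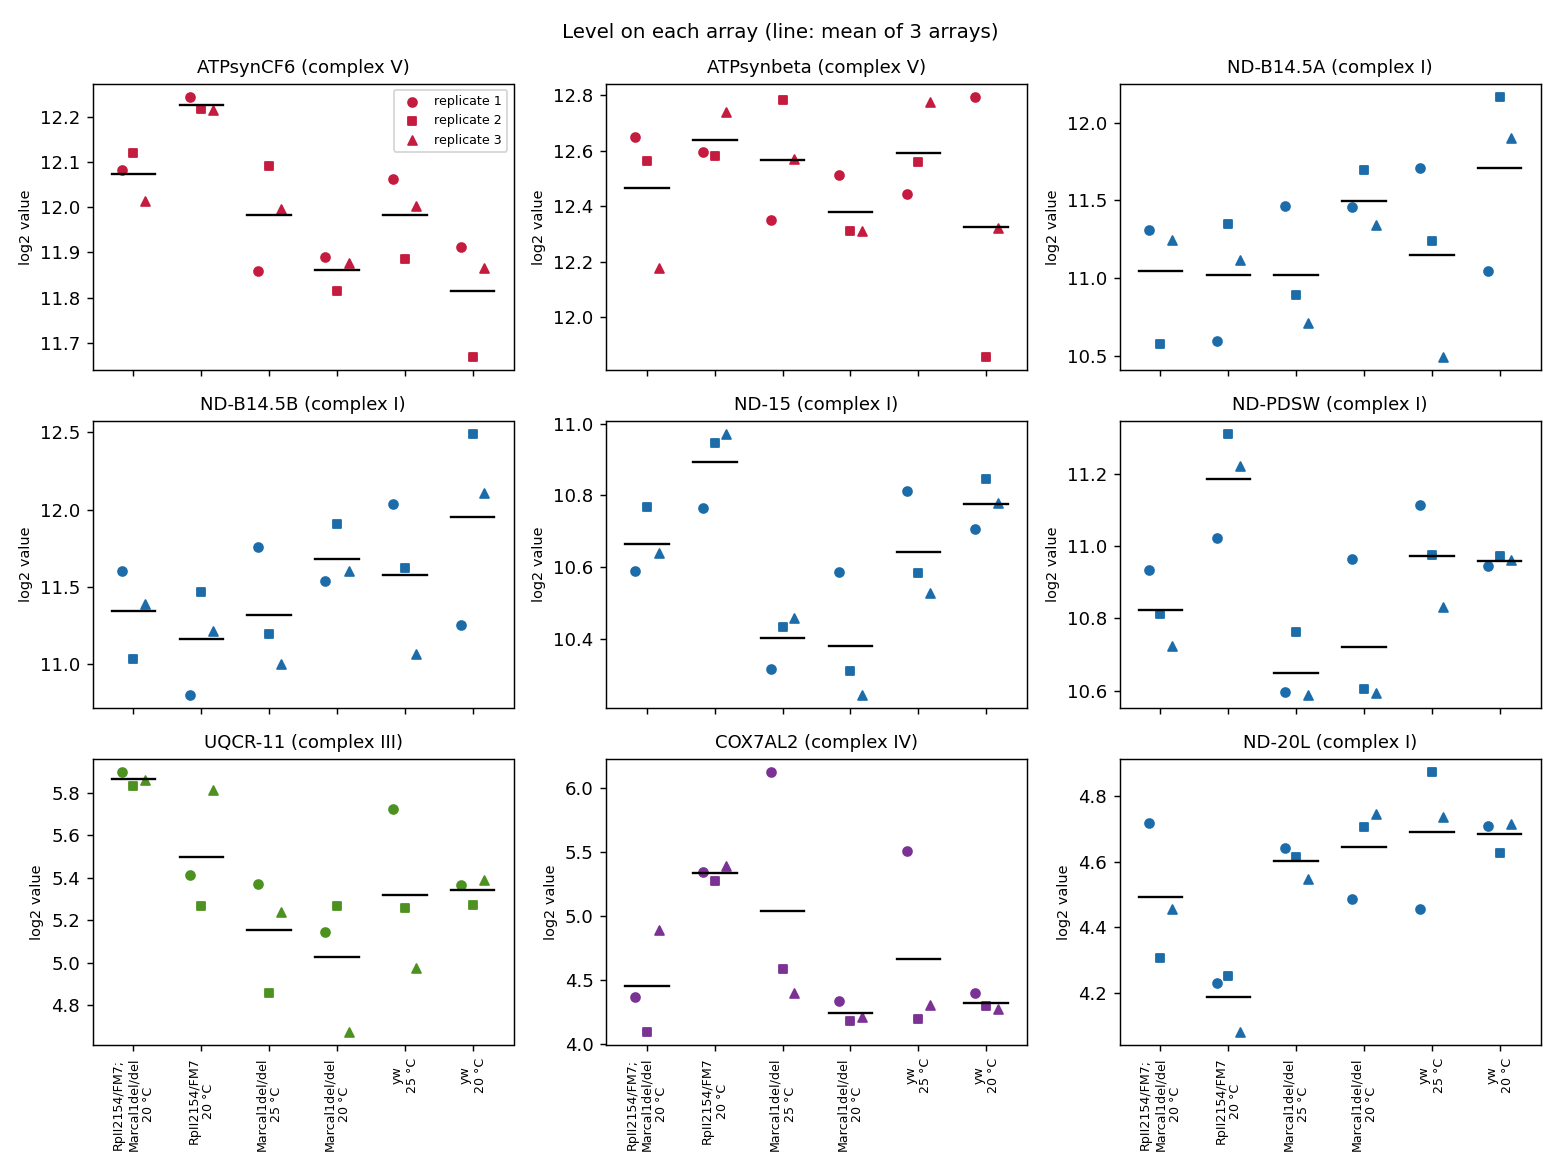
Log2 level of 9 genes on each array by group, with the 3 replicates as different symbols and the group mean as a line; the vertical axes differ between panels. ATPsynCF6 is highest in RpII2154/FM7, UQCR-11 is highest in RpII2154/FM7;Marcal1del/del, and ND-B14.5A and ND-B14.5B spread widely within groups in similar orders.

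With the Marcal1 deletion present in both groups, RpII2154/FM7;Marcal1del/del against Marcal1del/del at 20 °C, the median change of the 52 genes was 0.10, with 44 positive. That was close to the median of 0.07 over all probe sets with a mean over 9. UQCR-11, a small subunit of complex III, was called, as 1 of 73 genes where 3.85% of all probe sets were called and 2.17% were called higher. At an unadjusted p under 0.05 there were 16 higher and 0 lower genes, among them 6 paralogues, where 10.9% of all probe sets were higher and 9.09% lower. Of the probe sets with a mean over 9, 14.8% were higher and 9.37% lower by this rule. The 3 arrays did not overlap for 19 higher and 1 lower of the 52 genes, where 22.1% of the probe sets with a mean over 9 were higher and 12% lower in this way.

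UQCR-11 read 5.90, 5.83 and 5.86 in RpII2154/FM7;Marcal1del/del, against 5.15, 5.27 and 4.67 in Marcal1del/del. It rose by 0.83 ± 0.19, or 1.78-fold, with an adjusted p of 0.025 in limma. It read 5.41, 5.27 and 5.81 in RpII2154/FM7 and 5.37, 5.27 and 5.39 in yw at 20 °C, with group means between those of the 2 groups above. In 4 of the 6 fits with 1 array left out the call was lost, and the adjusted p in limma reached 0.09 without Marcal1del/del replicate 3, the lowest array. Among the genes above the array medians, the next highest changes were ND-75, the counterpart of the largest iron-sulfur subunit of complex I, at 0.36 ± 0.11, and COX5B, a nuclear subunit of complex IV, at 0.35 ± 0.13. ND-75 read 9.78, 9.63 and 9.74 in RpII2154/FM7;Marcal1del/del, against 9.34, 9.29 and 9.45 in Marcal1del/del. COX5B read 11.82, 11.69 and 11.79 in RpII2154/FM7;Marcal1del/del, against 11.62, 11.28 and 11.35 in Marcal1del/del. Neither overlapped, and the adjusted p was 0.082 for ND-75 and 0.14 for COX5B in limma. The lowest changes were -0.45 ± 0.33 for ND-B14.5A, -0.34 ± 0.30 for ND-B14.5B and -0.29 ± 0.16 for SdhC, a membrane anchor of complex II. The GAPDH difference between 3′ and 5′ sets averaged 1.53 ± 0.26 in RpII2154/FM7;Marcal1del/del and 1.28 ± 0.07 in Marcal1del/del, and the actin difference 1.70 ± 0.29 in RpII2154/FM7;Marcal1del/del and 1.05 ± 0.15 in Marcal1del/del (SD, n = 3 each). The eggshell markers averaged 10.82, 11.93 and 11.58 in RpII2154/FM7;Marcal1del/del, against 13.60, 13.61 and 12.92 in Marcal1del/del. Of these 11 markers 0 had a positive change, with a median of -1.91, and Cp36 and Cp38 were called lower. The 3 yolk genes also had negative changes, with a median of -0.76. The hemocyte marker srp was called lower, by a log2 change of -1.97. Of the 5 hemocyte markers, 2 were positive, with a median of -0.03. The germline marker aub was called higher, by 0.44, while 2 of 6 germline markers were positive, with a median of -0.04. The part of these in the changes of the subunit genes was not tested.

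With the Marcal1 deletion alone no gene of the respiratory chain was called at either temperature. At 20 °C the median change of the 52 genes in Marcal1del/del against yw was 0.001, with 27 positive. Leaving out 1 array gave medians from -0.08 to 0.06, with 8 to 39 positive, the lowest without yw replicate 2. The eggshell markers had a positive change in 11 of 11, with a median of 1.00, and the muscle markers in 2 of 13, with a median of -0.26 and TpnC4 called lower. The part of these markers was not tested. None of the 73 genes was called in limma, where 1.18% of all probe sets were, and 1 had an unadjusted p under 0.05, where 7.65% of all probe sets did. That gene was ND-15, the counterpart of a human accessory subunit of complex I. ND-15 read 10.59, 10.31 and 10.24 in Marcal1del/del, against 10.71, 10.85 and 10.78 in yw at 20 °C, with no overlap. Its change was -0.40 ± 0.11 with an adjusted p of 0.12 in limma. Next were UQCR-11 at -0.31 ± 0.19 and ND-B14.5B at -0.27 ± 0.30 among the lower genes, and ND-B17.2 at 0.18 ± 0.16, ND-B16.6 at 0.15 ± 0.14 and UQCR-Q at 0.12 ± 0.09 among the higher. The 95% interval of a single gene of the 52 had a median half-width of 0.24 on the log2 scale and ranged from 0.17 to 0.69.

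At 25 °C the median change in Marcal1del/del against yw was -0.07, with 13 of 52 positive, against a median of -0.03 over the probe sets with a mean over 9. The eggshell markers averaged 13.30, 13.37 and 13.53 in Marcal1del/del, against 11.99, 11.31 and 12.20 in yw. All 11 had a positive change, with a median of 1.66, as did the 3 yolk genes, with a median of 0.79. The hemocyte marker srp was called higher, but only 1 of 5 hemocyte markers had a positive change, with a median of -0.11. The part of these was not tested. None of the 73 genes was called in limma, where 1.23% of all probe sets were, and 3 had an unadjusted p under 0.05, all lower (ND-PDSW, ND-51 and ND-15), where 4.23% of all probe sets were lower in this way. The lowest were ND-PDSW at -0.32 ± 0.11, ND-51, which binds NADH in complex I, at -0.28 ± 0.12, and ND-B14.5B at -0.26 ± 0.30. ND-51 read 10.19, 10.45 and 10.33 in Marcal1del/del at 25 °C, against 10.59, 10.59 and 10.62 in yw at 25 °C. Neither ND-PDSW nor ND-51 overlapped between the groups, and their adjusted p was 0.32 and 0.55 in limma. The highest among the ranked genes were COX7AL2 at 0.37 ± 0.37, ATPsynbetaL at 0.21 ± 0.10 and ND-B16.6 at 0.15 ± 0.14. ATPsynbetaL averaged 4.14 in Marcal1del/del and 3.93 in yw, so that neither mean was above the range of the array medians. Without Marcal1del/del replicate 1, the array high for muscle markers, the change of COX7AL2 was -0.17.

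Within the RpII2154/FM7 background, RpII2154/FM7;Marcal1del/del against RpII2154/FM7, the median change of the 52 genes was -0.07 with 14 positive, against 0.06 over the probe sets with a mean over 9. All 10 complex V genes were negative, with a median of -0.13. None of the 73 genes was called in limma, where 1.88% of all probe sets were. At an unadjusted p under 0.05 there were 11, against 18.6% of all probe sets, of which 5 were higher, all paralogues, and 6 lower. The 3 arrays did not overlap for 14 lower and 2 higher of the 52 genes, where 11.3% of the probe sets with a mean over 9 were lower and 24.4% higher in this way. The lowest were COX7AL2 at -0.88 ± 0.37, ND-PDSW at -0.36 ± 0.11 and SdhC at -0.34 ± 0.16, and their adjusted p was 0.22, 0.11 and 0.27 in limma. SdhC read 10.41, 10.20 and 10.32 in RpII2154/FM7;Marcal1del/del, against 10.67, 10.54 and 10.75 in RpII2154/FM7. The highest among the ranked genes were UQCR-11 at 0.37 ± 0.19, ND-20L at 0.30 ± 0.12 and ATPsynbetaL at 0.23 ± 0.10. ATPsynbetaL passed the ranking rule through its mean of 4.23 in RpII2154/FM7;Marcal1del/del, so its place is partly fixed by that rule. The muscle markers averaged 5.61, 5.36 and 6.17 in RpII2154/FM7;Marcal1del/del, against 7.01, 6.55 and 7.01 in RpII2154/FM7. All 13 had a negative change, with a median of -1.31 and 0 called. The eggshell markers had a median change of -0.57 with 2 of 11 positive, the 3 yolk genes were all negative, and the hemocyte marker PPO1 was called lower. The actin difference between 3′ and 5′ sets averaged 1.70 ± 0.29 in RpII2154/FM7;Marcal1del/del and 1.37 ± 0.17 in RpII2154/FM7 (SD, n = 3 each). The GAPDH difference averaged 1.53 ± 0.26 and 1.49 ± 0.14 in the same order. The part of these markers and of RNA integrity was not tested. This comparison shares the RpII2154/FM7 arrays with that against yw, so that the 2 sets of changes are not independent.

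The differences between these deletion effects were tested directly. Between the effect at 25 °C and that at 20 °C, none of the 73 genes was called in limma, where 0.0107% of all probe sets were, and 1 had an unadjusted p under 0.05, where 1.57% did. That gene was ATPsynbetaL, at 0.33 ± 0.14, which lay above the median of its array on 5 of 18 arrays. The median of the 52 was -0.05, and with 1 array left out it ranged from -0.12 to 0.03, positive without yw at 20 °C replicate 2 and without Marcal1del/del at 25 °C replicate 1. Among the ranked genes, the highest were COX7AL2 at 0.45 ± 0.53, ATPsynbetaL, and ND-15 at 0.16 ± 0.15. The lowest were ND-51 at -0.25 ± 0.18, ND-39 at -0.23 ± 0.18 and ND-75 at -0.22 ± 0.15. Between the effect in RpII2154/FM7 and that in yw, none was called in limma, where 0.97% of all probe sets were, and 4 had an unadjusted p under 0.05, where 10.7% did. The median of the 52 was -0.07, with 19 positive, and complex V had a median of -0.17 with 0 of 10 positive. With 1 array left out, the median of the 52 ranged from -0.12 to 0.01, with 13 to 29 positive, and was positive without yw replicate 2. The eggshell markers had a median difference of -1.73 with 1 of 11 positive, and their part was not tested. Among the ranked genes, the highest were UQCR-11 at 0.68 ± 0.27, ND-B14.5B at 0.45 ± 0.42 and ATPsynbetaL at 0.35 ± 0.14. The place of ATPsynbetaL is again partly fixed by the ranking rule, which it passed through its mean in RpII2154/FM7;Marcal1del/del. The lowest were COX7AL2 at -0.80 ± 0.53, COX7A at -0.39 ± 0.17 and ND-B16.6 at -0.36 ± 0.19. The half-width of the 95% interval for such a difference had a median of 0.34 over the 52 genes and reached 0.98.

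None of the 73 oxidative phosphorylation genes was called between temperatures. In yw at 25 °C against 20 °C the median change of the 52 genes was 0.08 with 38 positive, against 0.05 over the probe sets with a mean over 9. Leaving out 1 array gave medians from -0.01 to 0.15, with 24 to 41 positive, negative without yw at 20 °C replicate 2, the array low for most subunits. Of the eggshell markers 0 of 11 and of the yolk genes 0 of 3 had a positive change. The germline marker aub was called higher at 25 °C, at 0.55 ± 0.08 with an adjusted p of 0.0053 in limma. It was the 1 of 6 germline markers with a positive change. The part of these markers was not tested. None of the 73 was called in limma, where 0.256% of all probe sets were, and 2 had an unadjusted p under 0.05, COX4L (lower) and SdhD (higher), where 7.43% did. Among the ranked genes, the highest were COX7AL2 at 0.35 ± 0.37, ATPsynbeta at 0.27 ± 0.19 and ND-39 at 0.26 ± 0.13. The lowest were ND-B14.5A at -0.56 ± 0.33, ND-B14.5B at -0.37 ± 0.30 and ATPsynbetaL at -0.20 ± 0.10. All of these highest and lowest genes overlapped between the temperatures. ATPsynbetaL averaged 3.93 at 25 °C and 4.13 at 20 °C, not above the range of the array medians. The change of COX7AL2 was -0.07 without yw at 25 °C replicate 1, the array high for muscle markers.

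In Marcal1del/del at 25 °C against 20 °C the median change was 0.03 with 31 positive, and it ranged from -0.01 to 0.07 with 1 array left out, negative without Marcal1del/del at 25 °C replicate 2. The germline marker aub was called higher, at 0.62 ± 0.08 with an adjusted p of 0.0028 in limma. Of the 6 germline markers 3 had a positive change, with a median of 0.04. The muscle markers had a positive change in 12 of 13, with a median of 0.44 and 0 called. Of the 3 fat body markers 1 was positive, with a median of -0.56. The part of these markers was not tested. None of the 73 was called in limma, where 0.202% of all probe sets were, and 2 had an unadjusted p under 0.05, where 4.25% did, COX7AL2 (higher) and COX4L (lower). Among the genes above the array medians, the highest were COX7AL2 at 0.80 ± 0.37, ATPsynbeta at 0.19 ± 0.19 and ND-SGDH at 0.18 ± 0.13, and the lowest were ND-B14.5A at -0.48 ± 0.33, ND-B14.5B at -0.36 ± 0.30 and ND-B12 at -0.19 ± 0.13. Of these 6, COX7AL2 alone did not overlap, and its highest array, at 6.13, was again the one high for muscle markers.

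**Figure D5:**
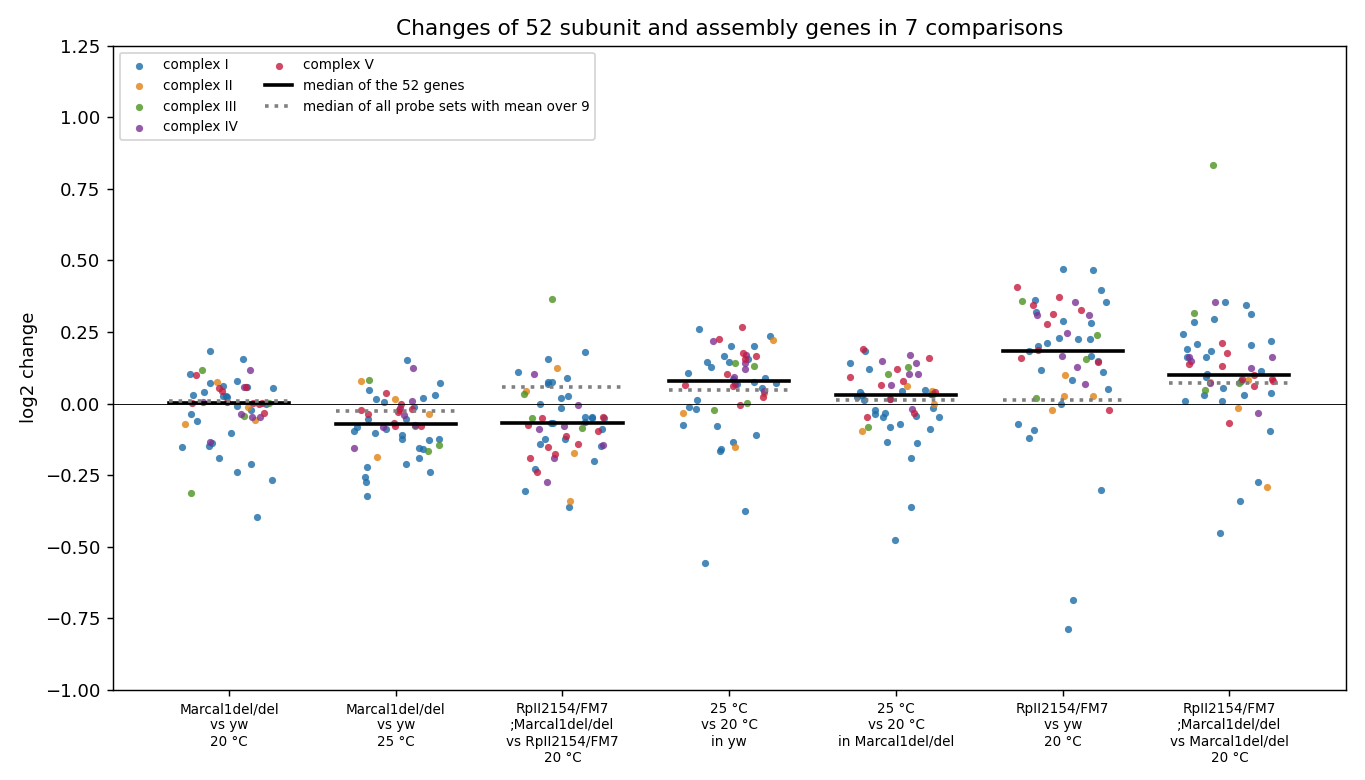
Log2 change of each of the 52 subunit and assembly factor genes (points, by complex) in the 7 comparisons between groups, with their median as a line and the median of all probe sets with a mean over 9 as a dotted line. The median of the 52 genes is 0.18 in RpII2154/FM7 against yw and between -0.07 and 0.10 in the others.

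For 6 genes further probe sets gave a second reading. There were 6 further sets with means over 9, and all 6 had the sign of the set used for their gene in RpII2154/FM7 against yw and in RpII2154/FM7;Marcal1del/del against RpII2154/FM7. In the temperature comparisons 3 of 6 agreed in sign in yw and 2 of 6 in Marcal1del/del. The widest gap was that of ATPsynbeta between temperatures in yw, with a change of 0.27 in the set used and -0.13 in the other. In RpII2154/FM7 against yw the 2 sets of ATPsynbeta gave 0.31 and 0.02. COX7B and COX7C each had 1 more set that was low on the arrays, with means of 3.27 and 2.94.

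Genes that work beside these subunits were read from short lists. Of 7 measured subunits named otherwise, namely RFeSP and Cyt-c1 of complex III, ox of complex III, levy and cype of complex IV and blw and sun of complex V, 6 had a positive change in RpII2154/FM7 against yw, with a median of 0.30. Of these, 1 was called where 2.76% of all probe sets were, ox, which averaged 11.03 ± 0.03 in RpII2154/FM7 and 10.59 ± 0.15 in yw (SD, n = 3 each), with no overlap. It rose by 0.43 ± 0.11 with an adjusted p of 0.04 in limma, and the call was lost in 5 of the 6 fits with 1 array left out. The 8 measured assembly factors had a median change of 0.06 in that comparison, with 5 positive, and 0 of them were called in any of the 9 comparisons. None of the 13 subunits encoded in mitochondrial DNA was measured by a probe set named here.

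Of the 7 measured carriers and uncouplers of the inner membrane, Bmcp and Ucp4A, which belong to the uncoupling protein family, were called. Of all probe sets, 2.76% were called in RpII2154/FM7 against yw, and for RpII2154/FM7;Marcal1del/del 1.88% were called against RpII2154/FM7 and 3.85% against Marcal1del/del. Bmcp read 9.83, 9.48 and 9.89 in RpII2154/FM7, against 9.02, 9.05 and 9.17 in yw, and rose by 0.65 ± 0.10 with an adjusted p of 0.0019 in limma. It read 9.12, 9.29 and 9.12 in RpII2154/FM7;Marcal1del/del, and fell by 0.55 ± 0.10 relative to RpII2154/FM7 with an adjusted p of 0.0091 in limma. Ucp4A read 6.88, 7.08 and 7.04 in RpII2154/FM7, against 7.77, 7.70 and 7.48 in yw, and fell by 0.65 ± 0.11 with an adjusted p of 0.0045 in limma. It read 7.15, 7.27 and 7.15 in RpII2154/FM7;Marcal1del/del, against 7.81, 7.56 and 7.76 in Marcal1del/del, and fell by 0.52 ± 0.11 with an adjusted p of 0.016 in limma. Neither gene overlapped between the groups in these comparisons. With 1 array left out, the 2 calls against yw were kept in 6 of 6 fits. The fall of Bmcp was lost in 1 of 6, without RpII2154/FM7 replicate 1, with an adjusted p of 0.053 in limma. It was also lost in the fit of the compared arrays alone, at an adjusted p of 0.12, and with the mean over the gene's probe sets, where the change was -0.36. That of Ucp4A against Marcal1del/del was lost in 4 of 6, up to an adjusted p of 0.067 without Marcal1del/del replicate 1. In fits of the compared arrays alone, the adjusted p against yw was 0.10 for Bmcp and 0.077 for Ucp4A in limma.

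Of 16 measured genes of mitochondrial DNA upkeep and dynamics, 2 were called, both higher in RpII2154/FM7 than in yw, where 1.52% of all probe sets were called higher. They were bsf, which binds mitochondrial and other mRNAs, at 0.65 ± 0.11 with an adjusted p of 0.0048 in limma, and mtDNA-helicase, the replicative helicase of mitochondrial DNA, at 0.39 ± 0.10 with an adjusted p of 0.04. With 1 array left out, bsf kept its call in 6 of 6 fits, and mtDNA-helicase lost it in 4 of 6, up to an adjusted p of 0.18 in limma without yw replicate 2. In the fit of the compared arrays alone neither was called, with an adjusted p of 0.091 for bsf and 0.27 for mtDNA-helicase in limma. In RpII2154/FM7;Marcal1del/del against Marcal1del/del, 13 of the 16 were positive, with a median of 0.13, and 0 were called.

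The largest called changes among these lists were in subunits of the NAD-dependent isocitrate dehydrogenase of the citric acid cycle, which supplies NADH to complex I. Idh3b read 7.91, 8.09 and 8.16 in Marcal1del/del at 25 °C, against 8.81, 9.12 and 9.08 in yw at 25 °C. It fell by 0.95 ± 0.12, or 1.93-fold, with an adjusted p of 2.3e-04 in limma. At 20 °C it read 8.62, 8.43 and 8.55 in Marcal1del/del, against 9.25, 8.92 and 9.03 in yw, and fell by 0.53 ± 0.12 with an adjusted p of 0.032 in limma. The call at 20 °C was lost in 5 of 6 fits with 1 array left out, up to an adjusted p of 0.16 in limma without Marcal1del/del replicate 2, and that at 25 °C in none of 6. In RpII2154/FM7;Marcal1del/del it read 8.62, 8.83 and 8.92, against 8.66, 8.59 and 8.77 in RpII2154/FM7, and the groups overlapped.

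Idh3g read 9.48, 9.77 and 9.56 in RpII2154/FM7;Marcal1del/del. The other groups at 20 °C read higher, with 10.61, 10.34 and 10.29 in RpII2154/FM7, 10.32, 10.49 and 10.44 in Marcal1del/del at 20 °C, and 10.44, 9.91 and 10.08 in yw at 20 °C. It fell by 0.81 ± 0.14 relative to RpII2154/FM7 and by 0.82 ± 0.14 relative to Marcal1del/del, with adjusted p of 0.0061 and 0.0026 in limma. The difference between the deletion's effect in RpII2154/FM7 and in yw was -1.09 ± 0.19, with an adjusted p of 0.0084 in limma. Mpc1, a subunit of the mitochondrial pyruvate carrier, read 9.97, 9.87 and 9.98 in Marcal1del/del at 20 °C, against 10.36, 10.24 and 10.35 in yw at 20 °C. It fell by 0.38 ± 0.08 with an adjusted p of 0.017 in limma, and the call was lost in 3 of 6 fits with 1 array left out, up to an adjusted p of 0.099 without yw replicate 3. In the fit of the compared arrays alone its adjusted p was 0.24 in limma. In RpII2154/FM7 Mpc1 read 10.10, 10.02 and 10.02, also under every yw array at 20 °C. Of the 11 measured genes of the cycle and of pyruvate use, Idh3b, Idh3g and Mpc1 were the ones called in any comparison, which is 2 of 11 in Marcal1del/del against yw at 20 °C and 1 of 11 at 25 °C, where 1.18% and 1.23% of all probe sets were called. For Idh3g it is 1 of 11 in RpII2154/FM7;Marcal1del/del against RpII2154/FM7, where 1.88% were, and against Marcal1del/del, where 3.85% were. In the difference between the deletion's effect in RpII2154/FM7 and in yw, Idh3g was called lower and Mpc1 higher, where 0.97% were called.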

How the data were processed

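Ovary RNA of 18 samples was measured on Affymetrix Drosophila Genome 2.0 arrays, 1 sample to an array. The deposited values are log2 intensities made with RMA, per the submitters' processing notes; their version, probe set definitions and annotation are not given in the sources used here. Normalization between arrays by RMA can remove shifts common to most transcripts; the deposited probe set values still had array medians between 4.08 and 4.20. Per the design text, the 3 samples of each group were independent biological replicates. For replicates 2 and 3 of RpII2154/FM7 the genotype entry reads FM8 or FM9, and the titles, with FM7, were followed.

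Of 18952 probe sets, 183 controls were left out. The platform annotation, with symbols updated to Release 6, named 1 gene for 13647 sets, several for 402 and none for 4720. All 18769 were fitted with limma 3.58.1 (R 4.3.3) on 18 arrays with group terms, residual degrees of freedom 12 and prior degrees of freedom 3.85, in 9 contrasts with 2-sided tests and Benjamini-Hochberg adjustment within each. Calls were made at an adjusted p under 0.05. The fit was tested on simulated data. With 3 arrays a group, the number of arrays limits the precision.

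The members and lists were chosen with earlier results of these data known. Named were called members, the 3 highest and 3 lowest changes with a group above the array median, the 5 widest and the most even genes, members under every median, paralogue pairs and called genes of other lists. ND-MNLL ends in L as part of its name and was kept as a subunit; the pathway lists take called genes only. The closing part gives alternatives.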

Additional observations from a re-analysis of the deposited data

Results flagged for a closer look

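For 2 genes outside the named subunits the effect of the Marcal1 deletion differed between the RpII2154/FM7 and yw backgrounds by the test of the difference itself. They come from the 11 measured genes of the cycle and of pyruvate use, where 0.97% of all probe sets were called. Deletion, RpII2154 allele, FM7 and stock background cannot be told apart in this difference. Mpc1 kept its call in 7 of 19 alternatives, with an adjusted p of 0.14 in limma in the fit of the compared arrays alone. Idh3g had a difference of -1.09 ± 0.19 on the log2 scale (limma, adjusted p 0.0084), with a deletion effect of -0.81 in RpII2154/FM7 and 0.28 in yw. Mpc1 had a difference of 0.50 ± 0.11 (limma, adjusted p 0.031), with a deletion effect of 0.12 in RpII2154/FM7 and -0.38 in yw. Its level without the deletion was also lower in RpII2154/FM7 than in yw at 20 °C, with means of 10.05 and 10.32. That change was -0.27 ± 0.08, with an adjusted p of 0.068 in limma. The call of the difference for Mpc1 was lost in 9 of 12 fits with 1 array left out, whereas that of Idh3g was kept in all 12.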

How the results depend on the processing

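The number of genes called depended on the setting mainly in the RpII2154 comparisons. For RpII2154/FM7 against yw, 2 genes were called; leaving out 1 array in turn gave 0 to 5, and 5 were called without yw replicate 1 (ATPsynB, ATPsynCF6, ND-39, ND-B14.5B and ND-B16.6), where 837 of 18769 probe sets were called, against 518 with all arrays. The filter on low values gave 5 (ATPsynB, ATPsynCF6, ATPsynD, ND-20L and ND-39), where 609 of 9384 probe sets were called. The fit of the compared arrays alone gave 1 (COX7AL2) and 137 probe sets, and quantile normalization, subtraction of the array median and the replicate block gave 1 each (ATPsynCF6). For RpII2154/FM7;Marcal1del/del against Marcal1del/del, 1 gene was called, and 0 to 1 with 1 array left out. It was 2 without the 3 arrays set apart (ND-75 and UQCR-11), with 1271 probe sets called against 722 with all arrays, and 2 each with the filter and with the array median subtracted (ND-ACP and UQCR-11). For Marcal1del/del against yw at 20 °C and for RpII2154/FM7;Marcal1del/del against RpII2154/FM7, leaving out 1 array gave 0 to 1 (ND-15 without Marcal1del/del replicate 1, and COX6CL without RpII2154/FM7 replicate 2). The other 5 comparisons gave 0 under every alternative run.

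ATPsynCF6 kept its call in 8 of 13 alternatives (adjusted p 0.0099 to 0.18), UQCR-11 in 9 of 13 (0.0063 to 0.09) and ND-20L in 2 of 13 (0.022 to 0.13). Idh3b at 25 °C and Idh3g kept theirs in all. The sign changed in 6 cases. With 1 array left out in turn, the change in Marcal1del/del against yw at 20 °C ranged from -0.61 to 0.0018 for ND-B14.5B and from -0.018 to 0.27 for ND-B16.6, with the sign turned without yw replicate 2. For COX7AL2 it ranged from -0.17 to 0.79 in Marcal1del/del against yw at 25 °C and from -0.091 to 0.87 in the difference between the temperatures' effects, with the sign turned without Marcal1del/del at 25 °C replicate 1. Between temperatures in yw it ranged from -0.073, without yw at 25 °C replicate 1, to 0.58, and was -0.035 without the 3 arrays set apart. The cause was not tested. With 1 array left out, the median of the 52 genes ranged from 0.12 to 0.22 in RpII2154/FM7 against yw and from 0.07 to 0.16 in RpII2154/FM7;Marcal1del/del against Marcal1del/del. The report gives the ranges of 5 other medians whose sign turned.

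Whether equal replicate numbers mark paired samples was not settled, because arrays of unequal numbers were not compared. Over 45 pairs of same-numbered arrays, the correlation of deviations from the group means ran from -0.33 to 0.47 with a median of -0.03. It was over 0.1 in 11 pairs. Between Marcal1del/del and yw at 25 °C it was 0.47, 0.07 and 0.30 for replicates 1 to 3. The replicate block gave 1 called gene in RpII2154/FM7 against yw and changed no other count by over 1.5 times.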
